A study of Nannospalax ehrenbergi and Mus musculus with 14 samples.

Results

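The microRNAs described here are miR-99a-5p, miR-99b-5p and miR-100-5p of the miR-99/100 family, and miR-125a-5p and miR-125b-5p of the miR-125 family. They were chosen by name, as 5 of the 1326 microRNA names in the deposited tables, and all 5 were measured in all 14 microRNA libraries and passed the filter on low values.

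The study injected the blind mole rat *Spalax*, a long-lived rodent that rarely develops cancer, and C57BL/6 mice with 3-methylcholanthrene (3MCA), a chemical carcinogen, and sequenced small RNA from the injected side of the neck, where the tumor grew (IS), and from the uninjected side of the neck (UIS). The 8 *Spalax* libraries came from 2 animals with a granuloma, a benign growth (specimens spalax_600 and spalax_976, both female, sampled 14 and 16 months after the injection), and from 2 with a fibrosarcoma, a malignant tumor (spalax_2240, female, at 18 months, and spalax_2230, male, at 30 months). The 6 mouse libraries came from male mice with fibrosarcomas (mouse_512, mouse_1023 and mouse_1019, sampled after 11, 12 and 14 weeks), and the UIS column whose number matched no label was used as an unpaired replicate. All animals compared here, UIS included, had received 3MCA once under the skin of the left neck, at 1 mg in 500 µl for *Spalax* and 200 µg in 200 µl for mice. *Spalax* had been caught in the field, so their ages were only estimated, at 2 to over 10 years. Mice were 3 to 4 months old. *Spalax* reads were counted under mouse microRNA names, and each *Spalax* condition rests on 2 animals.

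MicroRNAs are cut from hairpin precursors and silence messenger RNAs that pair with the seed, the bases near their 5′ end. Mammalian genomes carry 3 related clusters, each with a member of the miR-99/100 family, a let-7 gene and a member of the miR-125 family, made from a shared primary transcript. The miR-99/100 family is known for targeting *Mtor* and the IGF1 receptor and tends to restrain growth, whereas miR-125b is known both as a brake and as a driver in tumors and acts in blood and muscle cell differentiation. Each hairpin yields a 5p arm, usually the abundant one, and a rarer 3p arm.

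The mouse hairpins are shown because they explain which reads can and cannot be assigned to a locus. They were read from the GENCODE M21 transcripts on GRCm38, are all on the plus strand, and run from 5′ to 3′. Capitals mark the longest stretch shared by the hairpins shown of a family, which lies in the 5p arm. The stretch ACCCGTAGA is held by 3 of 2202 annotated mouse microRNA hairpins (0.136%), namely those of the miR-99/100 family.
Mir99a: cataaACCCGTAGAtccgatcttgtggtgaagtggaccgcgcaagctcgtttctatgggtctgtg
Mir100: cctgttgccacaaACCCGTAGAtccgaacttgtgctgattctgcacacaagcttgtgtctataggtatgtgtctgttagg
Mir99b: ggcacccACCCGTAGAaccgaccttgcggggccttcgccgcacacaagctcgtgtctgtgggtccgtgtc

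The stretch GTCCCTGAGACCCT is likewise held by 3 of the 2202 hairpins (0.136%), those of the miR-125 family.
Mir125b-1: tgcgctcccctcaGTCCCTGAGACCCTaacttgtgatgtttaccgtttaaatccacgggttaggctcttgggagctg
Mir125a: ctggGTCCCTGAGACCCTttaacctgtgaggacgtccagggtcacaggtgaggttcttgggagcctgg

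Counted from the first capital, Mir99a and Mir100 differed at 1 of the 21 bases, T15A, while Mir99b differed from Mir99a at 3, T10A, T15C and T20C. A read misread or trimmed at that base could be counted under either name, so the split between miR-99a-5p and miR-100-5p is uncertain, and it was not tested. In the mouse, miR-125b-5p is made from a locus on chromosome 9 and another on chromosome 16. Its reads can thus not be assigned to either, and only the 3p arms tell the loci apart.

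On chromosome 16, Mir99a lies at chr16:77598936-77599000 and let-7c-1 at chr16:77599657-77599750, both in introns of the non-coding host gene Mir99ahg. On chromosome 9, Mir100 is at chr9:41531425-41531504, let-7a-2 at chr9:41536716-41536811 and Mir125b-1 at chr9:41581926-41582002, in introns of the non-coding 3110039I08Rik. The compact cluster on chromosome 17 holds Mir99b at chr17:17830188-17830257, let-7e at chr17:17830352-17830444 and Mir125a at chr17:17830812-17830879, the first pair in an intron of *Spaca6* and Mir125a overlapping one of its exons. Mir99b and Mir125a are 554 bases apart, against 50421 bases between Mir100 and Mir125b-1. All positions and chromosomes named here and below are those of the mouse, and the loci of *Spalax* were not looked up.

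The libraries held 2034574 to 13982842 reads on microRNAs. The values below are the deposited normalized counts, which correct the reads of each library for its depth by a size factor, and the 5 microRNAs had at least 1267 reads in every library. Skeletal muscle microRNAs, such as miR-133a-3p and miR-1a-3p, took 27.7% to 37.3% of the UIS reads and 0.00959% to 3.94% of the IS reads, where up to 2 of the 7 were at 0, so the IS libraries did not carry the markers of the labelled muscle tissue at the UIS level. Marker microRNAs of fibroblasts took 0.232% to 1.09% of the UIS reads and 3.21% to 11.8% of the IS reads, and those of leukocytes 0.0621% to 0.112% against 0.341% to 2.39%. Summed as normalized counts, the scale of the results below, muscle and endothelial markers were lower at the IS in all 3 conditions without overlap (endothelial 86829 to 202584 at the UIS and 13157 to 56895 at the IS). Fibroblast markers were higher without overlap in granuloma and mouse, but overlapped in *Spalax* fibrosarcoma, where they went from 94026 to 286557 in spalax_2230 and from 153394 to 141548 in spalax_2240. On that scale leukocyte markers were higher in both *Spalax* conditions, while in mouse they overlapped (16000.5 to 19140 and 13102 to 61540) and were lower at the IS of mouse_512. The part of these lists in the results was not tested. In such bulk samples, fewer cells of a type and less RNA per cell cannot be told apart.

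miR-125b-5p had the highest normalized count of the 5 in all 6 groups. All mature microRNAs are of nearly the same length, so no length scaling was applied. In granuloma UIS its mean was 50356 ± 967 (SD, n = 2), followed by miR-99a-5p at 21008 ± 1413, miR-125a-5p at 15074 ± 3228, miR-100-5p at 6395 ± 97 and miR-99b-5p at 5293 ± 421, with no overlap between neighbors. In fibrosarcoma UIS of *Spalax* the order was the same apart from the last pair, and the neighbors miR-99a-5p (16845 ± 604) and miR-125a-5p (16720 ± 834) overlapped, as did miR-99b-5p (6047 ± 977) and miR-100-5p (5771 ± 541). Mouse UIS differed in order. There miR-125b-5p (39792 ± 6864, n = 3) was followed by miR-125a-5p (25396 ± 3985), miR-99b-5p (15635 ± 2462), miR-99a-5p (12301 ± 4682) and miR-100-5p (9306 ± 3271), and the last 3 overlapped with their neighbors. Since the tables were normalized separately, these levels are not compared between species.

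At the injected side the order changed. In granuloma IS the sequence was miR-125b-5p (87440 ± 6328), miR-100-5p (16309 ± 2112), miR-125a-5p (15136 ± 686), miR-99b-5p (11570 ± 162) and miR-99a-5p (11496 ± 6421), so miR-99a-5p went from the second place to the last, although it overlapped with miR-99b-5p. In *Spalax* fibrosarcoma IS it was also the last (10410 ± 10835), where the 4 microRNAs after miR-125b-5p (41483 ± 570) overlapped with their neighbors. In mouse IS, miR-125b-5p (58911 ± 14930), miR-99b-5p (30596 ± 732) and miR-125a-5p (18141 ± 4611) stood apart, and miR-100-5p (4569 ± 969) and miR-99a-5p (4517 ± 873) overlapped.

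**Figure D1:**
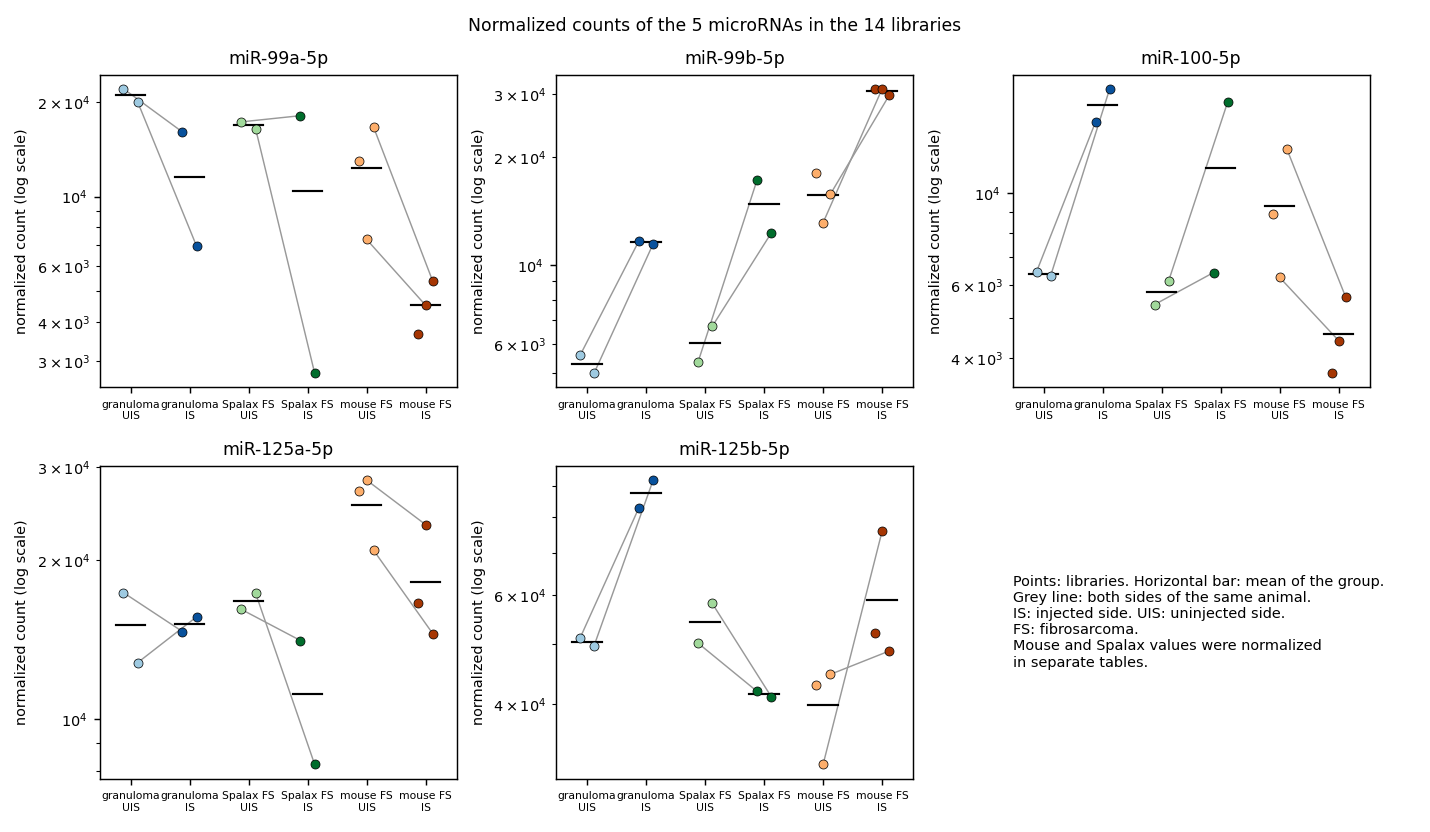
Normalized counts (y axis, log scale) of the 5 microRNAs in the 14 libraries, by group (x axis); points are libraries, bars are group means and grey lines join both sides of an animal. miR-99b-5p was higher at the IS in every condition, from group means of 5293, 6047 and 15635 at the UIS to 11570, 14765 and 30596, while the other 4 differed in direction between conditions or animals.

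The question of the main comparisons was how the injected side, with the tumor, differs from the uninjected side in each condition. In granuloma, 3 of the 5 microRNAs passed the test, all higher at the IS, against 48.3% of the 447 microRNAs tested in either direction, 25.5% higher and 22.8% lower. In *Spalax* fibrosarcoma 1 passed, also higher, against 37.4% of all tested, 15.2% higher and 22.1% lower. In mouse fibrosarcoma 1 was higher and 1 lower, against 57.8% of 547 microRNAs in either direction, 32.2% higher and 25.6% lower. Over 5 microRNAs, these counts do not set the families apart from all microRNAs tested. Whether the libraries of both sides overlapped is given below as a description only. How many of all microRNAs tested were without overlap was not counted, so a lack of overlap does not set a microRNA apart. The test was limma on log2(normalized count + 1), with Benjamini-Hochberg adjustment over all microRNAs tested. The median log2 change of the 5 was 0.79 for granuloma, -0.38 for *Spalax* fibrosarcoma and -0.50 for the mouse tumors, against 0.13, -0.23 and 0.21 over all tested.

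miR-99b-5p, from the chromosome 17 cluster, rose in all 3 conditions. In granuloma, spalax_600 and spalax_976 had 5590.4 and 4995 normalized counts at the UIS and 11685 and 11456 at the IS. In *Spalax* fibrosarcoma, spalax_2230 and spalax_2240 had 5356 and 6737 at the UIS and 17258 and 12272 at the IS. In mice the UIS libraries held 15731 (mouse_512), 13126 (mouse_1023) and 18047 (unpaired), and the IS libraries 29751 (mouse_512), 31026 (mouse_1023) and 31010.3 (mouse_1019). Every IS library was above every UIS library of its condition, and in the 6 animals with both sides the IS was 1.82 to 3.22 times the UIS. The log2 change was 1.13 ± 0.33 (SE; limma adjusted p = 0.0263) in granuloma, 1.28 ± 0.33 (adjusted p = 0.0204) in *Spalax* fibrosarcoma and 0.98 ± 0.26 (adjusted p = 0.0165) in mouse. With the animal as a block, limma's adjusted p was 0.0697, 0.0580 and 0.0590, the last on the 2 complete mouse pairs with the unpaired libraries left out. The granuloma call was lost without any 1 of its 4 libraries (adjusted p 0.0731 to 0.126), that of *Spalax* fibrosarcoma without either spalax_2230 library or the spalax_2240 UIS (adjusted p 0.0601 to 0.113), and that of mouse without either mouse_1023 library (adjusted p = 0.0713 and 0.0568), with changes of 0.86 to 1.44. edgeR gave adjusted p-values of 0.0565, 0.0845 and 0.0271.

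miR-99a-5p, from chromosome 16, had lower values at the IS on the deposited scale in all animals but spalax_2230. In granuloma, spalax_600 and spalax_976 had 22007 and 20009 at the UIS and 16037 and 6956 at the IS. In *Spalax* fibrosarcoma, spalax_2230 had 17272 at the UIS and 18072 at the IS, while spalax_2240 had 16418 and 2749. In mice the UIS libraries held 16598 (mouse_512), 7311 (mouse_1023) and 12996 (unpaired) and the IS libraries 5392, 4514 and 3646 (mouse_1019). The IS was below the UIS without overlap in granuloma and in mouse, and the *Spalax* fibrosarcoma groups overlapped because the 2 tumors differed. The log2 change was -1.38 ± 0.39 (limma adjusted p = 0.0205) in mouse, where miR-99a-5p fell on the deposited scale although its value scaled to total reads was 1.00 (adjusted p = 0.0545). It was -0.99 ± 0.82 (adjusted p = 0.344) in granuloma and -1.26 ± 0.82 (adjusted p = 0.269) in *Spalax* fibrosarcoma, and neither passed. Without the IS library of spalax_2230 the last value was -2.61 (adjusted p = 0.0109), and without that of spalax_2240 it was 0.10 (adjusted p = 0.893). The mouse call was lost with the animal as a block (-1.16, adjusted p = 0.0856) and without the unpaired UIS, the mouse_512 UIS, the mouse_1019 IS or the mouse_1023 IS library (adjusted p 0.05004 to 0.0687).

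miR-100-5p, from chromosome 9, differs from miR-99a-5p by the single base given above. In granuloma, spalax_600 and spalax_976 had 6463 and 6326 at the UIS and 14815 and 17802 at the IS. In *Spalax* fibrosarcoma, spalax_2230 had 5389 and 6434 and spalax_2240 had 6154 and 16564. In mice the UIS libraries held 12764 (mouse_512), 6260.5 (mouse_1023) and 8892 (unpaired) and the IS libraries 5607, 4411 and 3688 (mouse_1019). The IS stood above the UIS in both *Spalax* conditions and below it in mouse, with no overlap in any of them. It rose in granuloma, with a log2 change of 1.34 ± 0.47 (limma adjusted p = 0.0460), but the call was lost without the filter on low values (adjusted p = 0.0609) and without any 1 of the 4 libraries (adjusted p 0.0922 to 0.161). The change of 0.84 ± 0.47 in *Spalax* fibrosarcoma did not pass (adjusted p = 0.196), and it was 1.52 (adjusted p = 0.0140) without the IS of spalax_2230 and 0.16 without that of spalax_2240. Scaled to total reads it was 2.53 (adjusted p = 0.00349), and to the total without muscle microRNAs 1.89 (adjusted p = 0.0144). In mouse it was -0.99 ± 0.36 and missed the threshold (adjusted p = 0.0512), whereas scaled to total reads it was 1.39 (adjusted p = 0.0108). The mouse value passed in DESeq2 (-1.11, adjusted p = 0.0170) and without the IS of mouse_512 (-1.14, adjusted p = 0.0415).

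The 2 *Spalax* fibrosarcomas thus showed opposite pictures for this pair of near-identical microRNAs. The tumor of spalax_2240 (18 months, female) had 16564 normalized counts of miR-100-5p and 2749 of miR-99a-5p, and that of spalax_2230 (30 months, male) 6434 and 18072. With 1 library each, the difference has no replicate check, and animal, sex and time cannot be told apart.

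miR-125b-5p rose in granuloma, while in *Spalax* fibrosarcoma its values were lower at the IS in both animals. Granuloma spalax_600 and spalax_976 had 51039 and 49672 at the UIS and 82966 and 91914 at the IS. Fibrosarcoma spalax_2230 and spalax_2240 had 50124 and 58111 at the UIS and 41886 and 41079.9 at the IS. In mice the UIS libraries held 44609.9 (mouse_512), 31932 (mouse_1023) and 42832 (unpaired) and the IS libraries 48669.8, 76041 and 52022 (mouse_1019). The IS was above the UIS in granuloma and mouse and below it in *Spalax* fibrosarcoma, without overlap. The log2 change was 0.79 ± 0.26 (limma adjusted p = 0.0379) in granuloma, -0.38 ± 0.26 (adjusted p = 0.287) in *Spalax* fibrosarcoma and 0.55 ± 0.30 (adjusted p = 0.148) in mouse. The granuloma call did not hold with the animal as a block (adjusted p = 0.115), in edgeR (adjusted p = 0.103), in DESeq2 (adjusted p = 0.0608), without the filter on low values (adjusted p = 0.0546) or without any 1 library (adjusted p 0.0986 to 0.158). Scaled to total reads it passed in all 3 conditions, at 2.64 (adjusted p = 0.000283), 1.31 (adjusted p = 0.00431) and 2.93 (adjusted p = 0.000372).

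miR-125a-5p, the neighbor of Mir99b on chromosome 17, passed the test in no condition. Granuloma spalax_600 and spalax_976 had 17356 and 12791 at the UIS and 14650.3 and 15621 at the IS, which overlap. Fibrosarcoma spalax_2230 and spalax_2240 had 16129.6 and 17309.6 at the UIS and 14088 and 8219 at the IS, without overlap. In mice 20859.8 (mouse_512), 28331 (mouse_1023) and 26998 (unpaired) at the UIS stood against 14526, 23333 and 16563 (mouse_1019), which overlap. The log2 changes were 0.02 ± 0.37, -0.63 ± 0.37 and -0.50 ± 0.30 (limma adjusted p = 0.972, 0.213 and 0.188), with 95% intervals of -0.83 to 0.88, -1.49 to 0.22 and -1.22 to 0.21. On the scale of total reads all 3 passed, at 1.87 (adjusted p = 0.00323), 1.05 (adjusted p = 0.0420) and 1.88 (adjusted p = 0.00489).

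**Figure D2:**
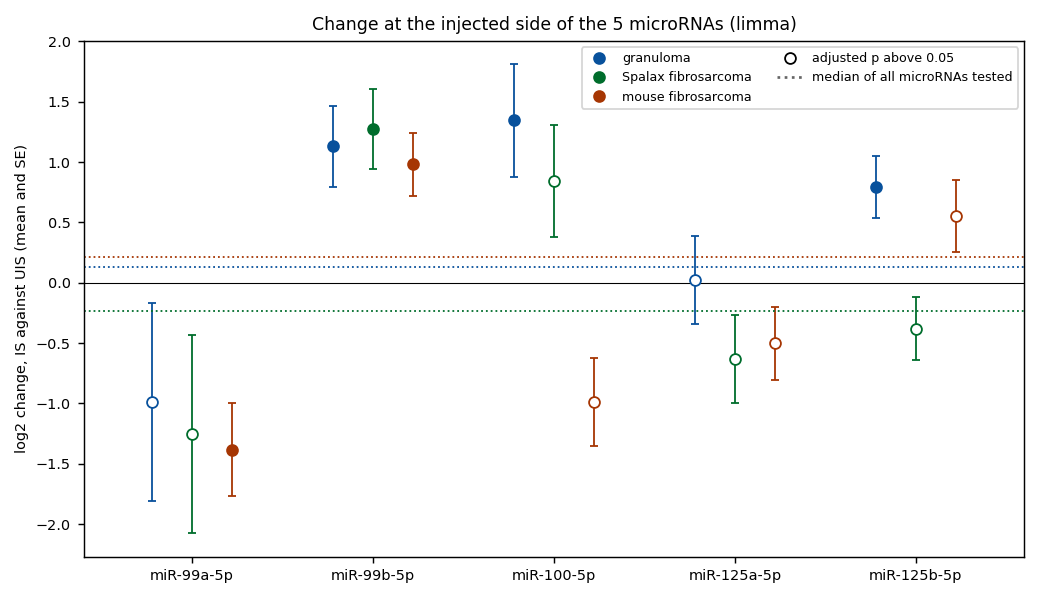
Log2 change at the IS against the UIS (y axis, limma estimate with SE) of the 5 microRNAs (x axis) in the 3 conditions, on the deposited scale; filled points passed an adjusted p of 0.05 and dotted lines mark the median of all microRNAs tested (0.13, -0.23 and 0.21). miR-99b-5p lay at 0.98 to 1.28 in all 3, and miR-100-5p at 1.34 in granuloma against -0.99 in mouse, a mouse value that was 1.39 when scaled to total reads.

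The scaling sets the direction of several of these values. The 5 microRNAs together took 0.611% of all microRNA reads in granuloma UIS and 3.18% in IS, 0.705% and 2.04% in *Spalax* fibrosarcoma, and 0.529% and 3.07% in mouse. With the muscle microRNAs left out of the total, the UIS shares were 0.960%, 1.10% and 0.745%, and the IS shares 3.18%, 2.04% and 3.13%. Scaling to total reads moved the median change of all microRNAs tested to 1.71 for granuloma, 1.14 for *Spalax* fibrosarcoma and 2.24 for mouse, and scaling to the total without muscle microRNAs to 1.18, 0.69 and 1.88. Relative to that median, miR-99b-5p was higher by 1.00, 1.51 and 0.77 on the deposited scale and by 1.15, 1.63 and 1.02 on the total without muscle microRNAs. miR-99a-5p was -1.12, -1.03 and -1.60 relative to the median on the deposited scale and -0.97, -0.90 and -1.34 on the other. Mouse miR-100-5p was -1.20 and -0.94 in the same terms, and in granuloma 1.22 and 1.36.

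**Figure D3:**
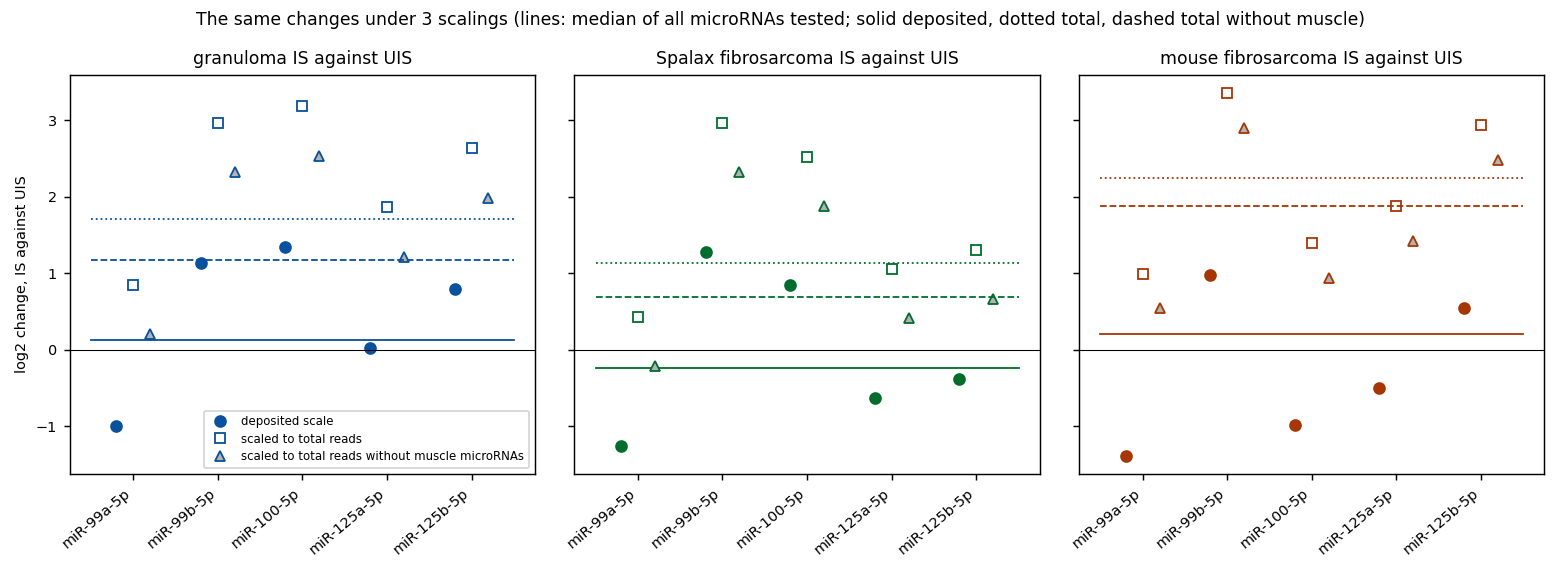
The same log2 changes (y axis) of the 5 microRNAs (x axis) in the 3 conditions under the deposited scale (circles), total reads (squares) and total reads without muscle microRNAs (triangles); horizontal lines give the median of all microRNAs tested under each. The values shift together with the median, from 0.13 to 1.71 in granuloma and from 0.21 to 2.24 in mouse, and miR-99a-5p stays under the median in every panel.

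Ratios of reads within a library do not depend on any scaling, and they are given as a description. The ratio of miR-99b-5p to miR-99a-5p went from 0.254 and 0.250 at the UIS to 0.729 and 1.65 at the IS of granuloma spalax_600 and spalax_976. In *Spalax* fibrosarcoma it went from 0.310 to 0.955 in spalax_2230 and from 0.410 to 4.46 in spalax_2240. In mouse it was 0.948 to 1.80 at the UIS and 5.52 to 8.51 at the IS. The ratio was higher at the IS in 6 of 6 animals, by 2.87 to 10.9 times. Within the family, miR-99b-5p thus gained on miR-99a-5p in each of them.

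Against its neighbor on the same cluster, miR-99b-5p also gained. Its ratio to miR-125a-5p was 0.322 to 0.390 in granuloma UIS and 0.733 to 0.798 in IS, 0.332 to 0.389 and 1.23 to 1.49 in *Spalax* fibrosarcoma, and 0.463 to 0.754 and 1.33 to 2.05 in mouse. No IS library overlapped with the UIS of its condition, and the ratio was higher in 6 of 6 animals. Arms from hairpins that lie 554 bases apart in the mouse genome were thus not in a fixed ratio. The ratio of miR-100-5p to miR-99a-5p was also higher at the IS in 6 of 6 animals, but by only 1.14 times in spalax_2230 and by 16.1 times in spalax_2240. In mouse it lay at 0.684 to 0.856 at the UIS and 0.977 to 1.04 at the IS. The ratio of miR-100-3p to miR-99a-3p was higher at the IS in 6 of 6 animals (1.85 to 53.3 times). That of miR-125b-5p to miR-125a-5p was higher in 5 of 6 (0.957 to 2.89 times). let-7a-2-3p to let-7c-1-3p, on few reads, was also higher in 5 of 6, with mouse means of 0.330 at the UIS and 0.355 at the IS.

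**Figure D4:**
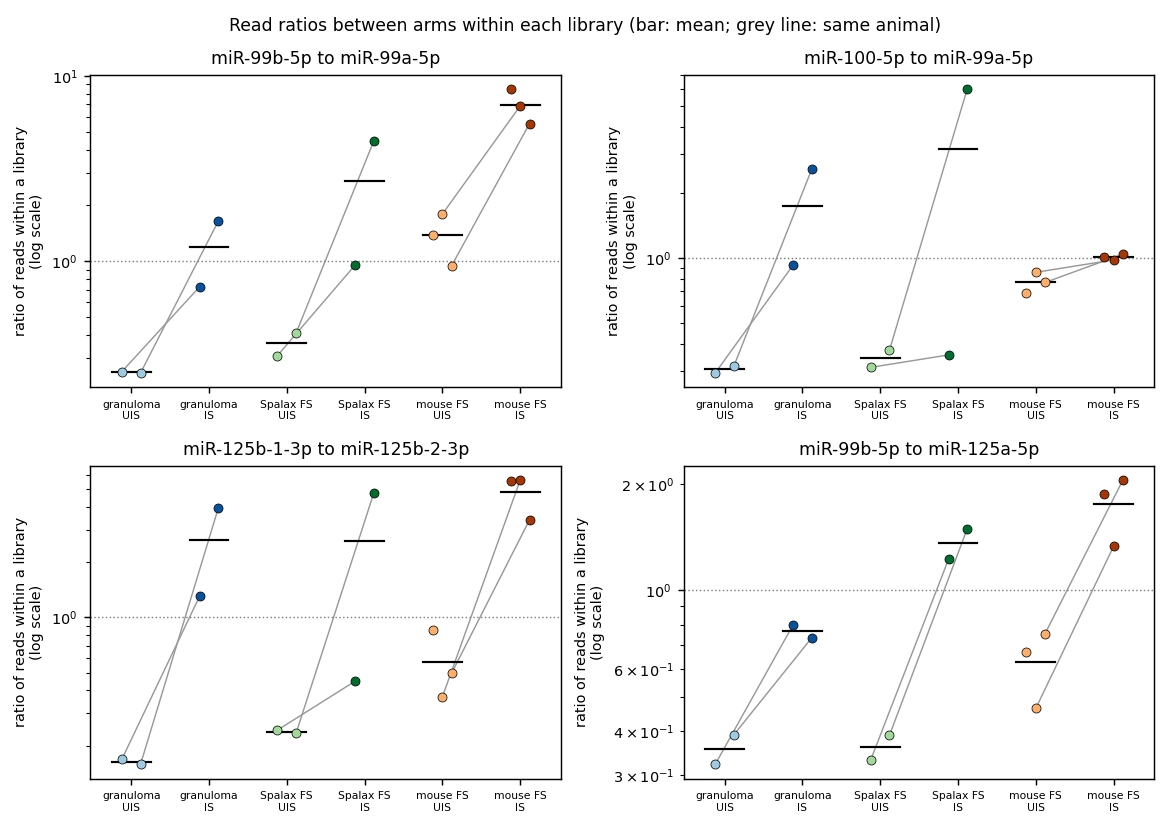
Ratios of reads between microRNA arms within each library (y axis, log scale) by group (x axis); points are libraries, bars are means and grey lines join both sides of an animal. All 4 ratios drawn were higher at the IS in 6 of 6 animals, from 1.14 to 16.1 times for miR-100-5p to miR-99a-5p and from 1.85 to 25.1 times for miR-125b-1-3p to miR-125b-2-3p. The ratios of miR-125b-5p to miR-125a-5p and of let-7a-2-3p to let-7c-1-3p, not drawn, were higher in 5 of 6.

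The 3p arms separate the 2 loci of miR-125b. miR-125b-1-3p, from chromosome 9, had 205.5 and 144.8 normalized counts in granuloma UIS and 2908 and 2836 in IS. In *Spalax* fibrosarcoma it went from 249.1 to 1027 in spalax_2230 and from 262.7 to 2749 in spalax_2240. In mouse the UIS libraries held 649.5 (mouse_512), 385.7 (mouse_1023) and 924.4 (unpaired) and the IS libraries 3345, 4444 and 3741 (mouse_1019). It was the arm with the steepest rise of the 6, and no groups overlapped. The log2 change was 4.05 (limma adjusted p = 0.00105) in granuloma, 2.71 (adjusted p = 0.00682) in *Spalax* fibrosarcoma and 2.63 (adjusted p = 0.00270) in mouse. It passed with the animal as a block, in edgeR, in DESeq2 and under both total scalings in all 3 conditions. Leaving out single libraries kept every call but that of *Spalax* fibrosarcoma without the UIS of spalax_2230 (2.67, adjusted p = 0.0519).

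miR-125b-2-3p, from chromosome 16, did not pass in any condition. It had 1222 and 917.4 in granuloma UIS and 2224 and 717.0 in IS of spalax_600 and spalax_976. In *Spalax* fibrosarcoma spalax_2230 went from 1027 to 2285 and spalax_2240 from 1123 to 572.8. In mouse the UIS libraries held 1305 (mouse_512), 1046 (mouse_1023) and 1083 (unpaired) and the IS libraries 981.2, 790.6 and 675.3 (mouse_1019), without overlap. The *Spalax* groups overlapped, and the log2 changes were 0.25, 0.09 and -0.50 (limma adjusted p = 0.814, 0.932 and 0.212), the mouse value being 1.86 (adjusted p = 0.00317) when scaled to total reads. The ratio of miR-125b-1-3p to miR-125b-2-3p went from 0.168 and 0.158 to 1.31 and 3.96 in granuloma, and from 0.243 and 0.234 to 0.449 (spalax_2230) and 4.80 (spalax_2240) in *Spalax* fibrosarcoma. In mouse it was 0.369 to 0.853 at the UIS and 3.41 to 5.62 at the IS. These arms have far fewer reads than the 5p arm (114 to 10315 for miR-125b-1-3p). For other hairpins, the ratio of the 5p to the 3p arm was not constant between the sides. It was higher at the IS in 6 of 6 animals for miR-99a (1.04 to 2.075 times) and in 2 of 6 for miR-99b. For miR-100 and miR-125a it was higher in 0 of 6 (0.410 to 0.836 times). The change of the 5p arm of miR-125b by locus can thus not be read from the 3p arms directly.

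On the deposited scale, the other 3p arms followed their 5p arms in sign except for miR-125a-3p. It was 0.40 and 0.65 in *Spalax* fibrosarcoma and mouse, against -0.63 and -0.50 for miR-125a-5p. miR-99a-3p fell in mouse, with a log2 change of -1.84 (limma adjusted p = 0.00672) that was 0.50 (adjusted p = 0.313) on the scale of total reads and lost its call with the animal as a block (-1.58, adjusted p = 0.105). In granuloma and *Spalax* fibrosarcoma it was -2.01 (adjusted p = 0.0531) and -2.07 (adjusted p = 0.0582), the latter -3.16 (adjusted p = 0.00636) without the IS of spalax_2230. miR-100-3p, with 8 to 48 reads, rose in granuloma (1.80, adjusted p = 0.0378) and lost that call with the animal as a block (adjusted p = 0.0727), without the filter (adjusted p = 0.0701) and without any 1 library (adjusted p 0.0571 to 0.182). It did not pass in *Spalax* fibrosarcoma (1.59, adjusted p = 0.0677, but 0.0445 without the IS of spalax_2230) or mouse (-0.40, adjusted p = 0.536). miR-99b-3p rose in *Spalax* fibrosarcoma (1.67, adjusted p = 0.0379) and mouse (1.00, adjusted p = 0.0391) and not in granuloma (0.89, adjusted p = 0.189, but 2.43 and 0.00259 scaled to total reads), and both calls were lost with the animal as a block (adjusted p = 0.0705 and 0.193), without the filter (adjusted p = 0.0613 and 0.0840) and without any 1 library of their condition (adjusted p 0.0726 to 0.193 and 0.0518 to 0.116). Of the 8 alternative fits for *Spalax* fibrosarcoma other than omission of single libraries, miR-99b-3p passed in 4. miR-125a-3p passed in none of the conditions (1.13, 0.40 and 0.65, adjusted p = 0.137, 0.603 and 0.235), but scaled to total reads it was 2.53, 1.84 and 2.69 and passed in all 3 (adjusted p = 0.00275, 0.0143 and 0.00181). Of the 6 arms, 2 were higher in granuloma (25.5% of all tested), 2 higher in *Spalax* fibrosarcoma (15.2%), and 2 higher and 1 lower in mouse (32.2% and 25.6%), too few to set them apart from all tested.

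**Figure D5:**
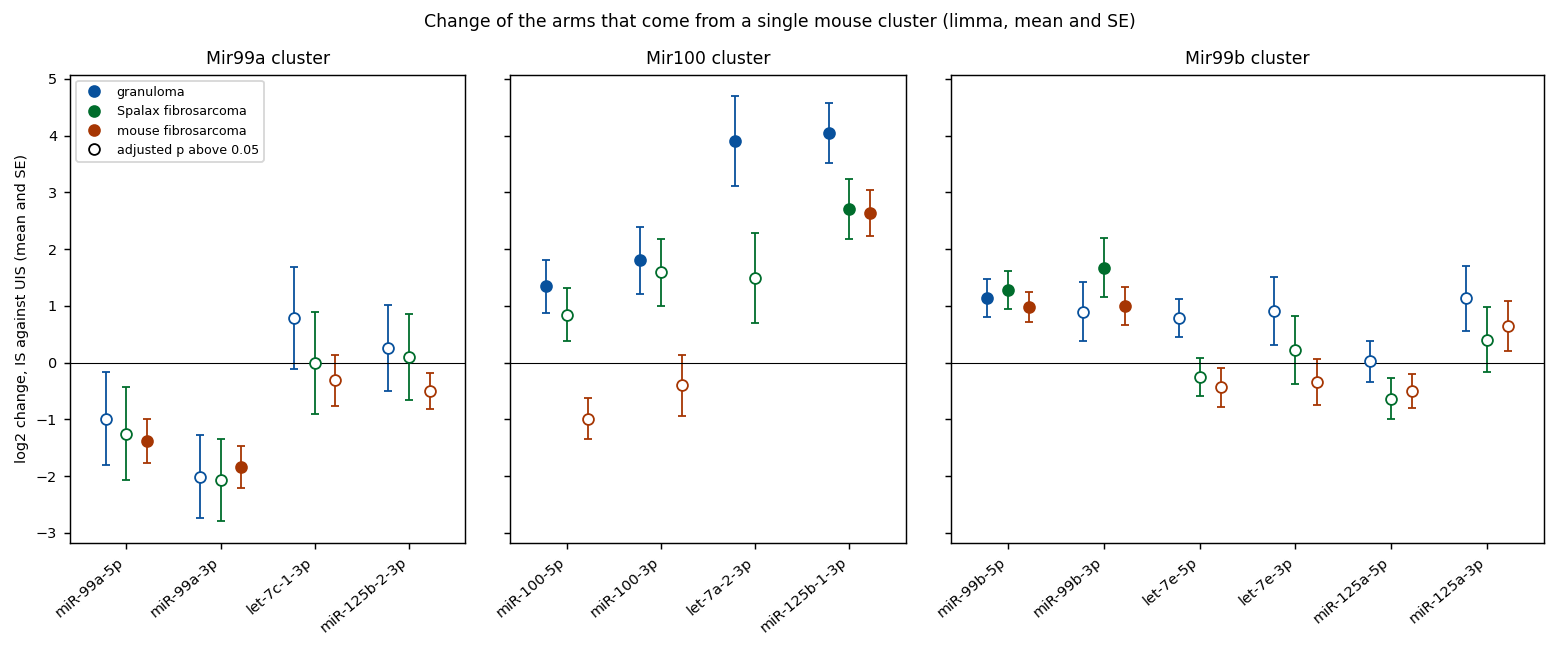
Log2 change at the IS against the UIS (y axis, limma estimate with SE, deposited scale) of arms that come from a single mouse cluster (x axis, 1 panel a cluster); filled points passed an adjusted p of 0.05. In the Mir100 cluster miR-125b-1-3p lay at 2.63 to 4.05 in the 3 conditions, while in the Mir99a cluster miR-99a-3p lay between -2.07 and -1.84, a mouse value that was 0.50 when scaled to total reads. Other arms of these clusters did not move with them. In mouse, miR-100-5p and miR-100-3p were -0.99 and -0.40. In *Spalax*, miR-125b-2-3p and let-7c-1-3p of the Mir99a cluster lay between -0.02 and 0.79.

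The let-7 microRNAs of the same transcripts are known for repressing growth and stem cell genes. Their 5p arms are shared between several let-7 loci, so only let-7c-1-3p, let-7a-2-3p and the let-7e arms belong to a single cluster. Of 6 let-7 arms, 1 was higher in granuloma (25.5% of all tested) and 1 lower in *Spalax* fibrosarcoma (22.1%). In mouse, 2 of 5 tested were lower (25.6%), and these counts are too few to set the arms apart from all tested. let-7a-2-3p, between Mir100 and Mir125b-1, had 0 and 1 reads in granuloma UIS and 21 and 14 reads in IS (limma log2 change 3.91, adjusted p = 0.00652), a ratio of 32.9 with an exact counting interval of 5.52 to 1334 (95%). let-7a-5p fell in *Spalax* fibrosarcoma (-1.17, adjusted p = 0.0324) and mouse (-1.65, adjusted p = 0.00531) and let-7c-5p in mouse (-0.95, adjusted p = 0.0169) on the deposited scale, whereas scaled to total reads these were 0.52, 0.73 and 1.43. With the animal as a block, let-7a-5p in *Spalax* fibrosarcoma (adjusted p = 0.0677) and let-7c-5p (adjusted p = 0.0781) lost their calls, as they did without the filter (adjusted p = 0.0566 and 0.0523), and the former also in DESeq2 (adjusted p = 0.0681) and without either spalax_2230 library or the spalax_2240 UIS (adjusted p 0.0838 to 0.171) and the latter without the unpaired UIS or the mouse_1023 IS (adjusted p = 0.0597 and 0.0568).

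Among relatives by sequence, miR-10b-5p, which resembles the miR-99/100 family and lies in a Hox cluster, fell in granuloma (-1.12, adjusted p = 0.0285) and mouse (-2.20, adjusted p = 0.00389) on the deposited scale, and was 0.73 and 0.18 on the scale of total reads. The granuloma call was lost with the animal as a block (adjusted p = 0.0558), without the filter (adjusted p = 0.0560) and without any library but the IS of spalax_600 (adjusted p 0.0928 to 0.160). miR-351-5p, a rodent relative of miR-125, rose in mouse from 1443 to 3141 normalized counts at the UIS to 8217 to 49713 at the IS (3.02, adjusted p = 0.0106). In *Spalax* it had at most 116 reads in a library, and in granuloma it went from 116 and 8 reads to 1 and 1 (-4.25, adjusted p = 0.0422), a call that ended without the UIS of spalax_600 (-2.31, adjusted p = 0.233) and also without either IS library (adjusted p = 0.109 and 0.0970). That call held in edgeR, DESeq2 and with the animal as a block, and did not in the other 5 alternative fits, among them a pseudocount of 0.1 (-4.92, adjusted p = 0.0961) and total reads (-1.73, adjusted p = 0.108). miR-10a-5p passed in none of the 3.

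The comparison of the granuloma and *Spalax* fibrosarcoma changes asks where the benign and malignant growths differ. Both granuloma animals were female and were sampled earlier than the fibrosarcoma animals, a female and a male. Diagnosis, sex and time can thus not be told apart in it. None of the 5 microRNAs passed (limma; 1 at an unadjusted p under 0.05, 0 in edgeR and 0 in DESeq2), against 3.80% of 447. The closest was miR-125b-5p, with a difference of 1.17 ± 0.37 (95% interval 0.32 to 2.03, adjusted p = 0.0949). Between the injected sides themselves, miR-125b-5p was higher in granuloma by 1.07 ± 0.26 (adjusted p = 0.0256), the only one of the 5 to pass, against 18.8% of all tested, 15.4% higher and 3.36% lower. Its granuloma libraries at 82966 and 91914 stood apart from the fibrosarcoma libraries at 41886 and 41079.9. Fibroblast markers moved with it, at 518645 and 528163 summed normalized counts in granuloma IS and 286557 and 141548 in *Spalax* fibrosarcoma IS, and their part was not tested. That call was lost in edgeR (adjusted p = 0.0676), in a fit of only these 4 libraries (adjusted p = 0.152) and without either granuloma library (adjusted p = 0.0876 and 0.113). Between the uninjected sides of the 2 conditions, 0 of the 5 and 0% of 447 microRNAs passed in limma, with 0 and 5 at an unadjusted p under 0.05 and 0 in edgeR and DESeq2. The 5 differences lay between -0.18 and 0.32.

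The species were compared in a fit of the 13 libraries of the *Spalax* table, chosen after the values were seen. That table holds 5 of the mouse libraries on the same scale. Species cannot be told apart here from dose, time after the injection and age. In the granuloma contrast it can also not be told apart from sex and from a benign against a malignant growth. For the granuloma change minus the mouse fibrosarcoma change, 0 of the 5 passed in limma, against 14.7% of 607 tested (3.95% higher and 10.7% lower), with 1 at an unadjusted p under 0.05. That was miR-100-5p, at 2.21 ± 0.67 (95% interval 0.71 to 3.70, adjusted p = 0.0525), whose adjusted p over the alternatives ran from 0.0251 (DESeq2, which called it) to 0.174. For the *Spalax* fibrosarcoma change minus the mouse change, 0 of the 5 passed in limma, against 26.0% (5.77% higher and 20.3% lower), with 2 at an unadjusted p under 0.05. These were miR-100-5p, at 1.71 ± 0.67 (adjusted p = 0.0897), and miR-125b-5p, at -1.12 ± 0.40 (adjusted p = 0.0658), and DESeq2 called both (adjusted p = 0.0453 and 0.0459) while edgeR called neither (adjusted p = 0.102 and 0.184). Scaled to total reads and to the total without muscle microRNAs, limma called miR-125b-5p (-1.86 and -2.06, adjusted p = 0.00447 and 0.00262), where the median of all tested was -0.86 and -0.93, and miR-100-5p was 0.96 and 0.77. Both comparisons use the same mouse libraries. The change of miR-99b-5p differed from the mouse change by -0.09 (95% interval -0.94 to 0.77) in granuloma and 0.06 (-0.80 to 0.92) in *Spalax* fibrosarcoma. These intervals leave room for differences of nearly 1 on the log2 scale.

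The profiles most like each of the 5 were found by the root mean square difference of the log2 values over 14 libraries, centered within each species, among 403 microRNAs tested in both tables. For miR-99a-5p these were its own 3p arm (0.458) and miR-145a-3p (0.507), and for miR-100-5p its own 3p arm (0.423) and miR-3968 (0.501). miR-99b-5p was closest to miR-181a-1-3p (0.259) and miR-324-3p (0.276), and miR-125a-5p to let-7b-3p (0.279) and let-7f-1-3p (0.285). miR-125b-5p was closest to let-7j (0.433) and let-7e-5p (0.451). Among the 5 themselves, the closest pair was miR-125a-5p and miR-125b-5p (0.489), and the farthest miR-99a-5p and miR-99b-5p (1.31), so members of a family were not always the most alike.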

How the data were processed

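Small RNA was sequenced in 8 *Spalax* and 6 mouse libraries. Per the methods, the authors trimmed adaptors and mapped reads with mirDeep. The submitters' processing notes name GRCm38, TopHat 1.4.1, HTSeq and DESeq without roles. The deposited values are a signal per microRNA, that is reads corrected by 1 size factor a library, in a table per species. Multiplying back gave whole reads for 100% of the values within 0.001, and 5 mouse libraries held in both tables differed by 0 reads.

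Groups came from the sample labels. The 5 microRNAs and all lists were chosen with earlier results of these data known. limma, with a spread that follows the mean, was run on log2(value + 1) after dropping microRNAs that reached 10 in fewer than 2 *Spalax* or 3 mouse libraries, with a threshold of 0.05. The 8 *Spalax* libraries shared a fit and the mouse libraries had their own. Named microRNAs were the 5, their other arms, the let-7 arms of the clusters, miR-10a, miR-10b and miR-351, and the 2 nearest profiles of each. Relatives by shared seed were not searched here. Marker lists covered muscle, leukocytes, red cells, endothelium, fibroblasts and epithelium. Red cell microRNAs took 0.0539% to 0.544% of reads at the UIS and 0.0926% to 0.849% at the IS, those of endothelium 0.323% to 1.10% and 0.343% to 1.64% (lower at the IS as normalized counts), and those of epithelium 0.000493% to 0.0180% and 0.00241% to 0.0243%.

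Replicate numbers are animal numbers, so both sides of 6 animals are paired. Deviations of same-numbered libraries correlated at 0.0933 in granuloma, 0.00405 in *Spalax* fibrosarcoma, and -0.107 and 0.122 in mouse_1023 and mouse_512. Per degree of freedom, chi-square between libraries of a group was 327 or more, so none was a duplicate. Alternatives were edgeR's quasi-likelihood test and DESeq2 on the recovered reads, a pseudocount of 0.1, no filter, both total scalings, the animal as a block, omission of single libraries, and fits restricted to the compared libraries. Totals were 2034574 to 13982842 reads, at which 3 reads are 0.0000215% to 0.000147%, and such limits cover counting error only. On simulated reads with 4-fold changes, limma recovered 93.9% of 196 changed microRNAs in the granuloma design. It recovered 88.7% of 194 for *Spalax* fibrosarcoma and 99% of 191 for mouse. Of the unchanged ones, 12 of 244, 4 of 242 and 7 of 368 were called. These rates hold for the simulated size and spread only. Changes below 4-fold, the size of many reported above, were not simulated, so their recovery is not known. Hairpins and their positions were taken from GENCODE M21 (GRCm38), and 1 hairpin of the miR-125 family is not reported here. DESeq2 1.42.0, edgeR 4.0.16 and limma 3.58.1 were run in R 4.3.3, the rest in Python 3.11.15.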

Additional observations from a re-analysis of the deposited data

Results flagged for a closer look

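let-7a-2-3p, cut from the hairpin between Mir100 and Mir125b-1, changed differently in granuloma than in mouse fibrosarcoma in the 13-library fit (difference 3.78 ± 0.82, limma adjusted p = 0.0128). It rests on 0 and 1 reads at the granuloma UIS and 21 and 14 at the IS, against 4 to 22 reads in each mouse library, and it did not pass in edgeR (adjusted p = 0.122), in DESeq2 (adjusted p = 0.108) or without either library of spalax_600 (adjusted p = 0.0518 and 0.0583). Of the 8 alternative fits other than omission of single libraries, let-7a-2-3p passed in 4. miR-351-5p differed in the same contrast (-7.70 ± 1.84, adjusted p = 0.0217), with 1 to 116 reads in the granuloma libraries and 751 to 44737 in the mouse libraries. miR-351-5p passed in 6 of these 8 fits. It passed in DESeq2 (adjusted p = 5.9e-05) and not in edgeR (adjusted p = 0.0934) or without the UIS of granuloma spalax_600 (-5.76, adjusted p = 0.0765). Without the UIS of mouse_1023 or mouse_512 or either granuloma IS library its adjusted p was 0.0530 to 0.0750.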

How the results depend on the processing

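The depth of at least 2034574 reads does not limit the 5 microRNAs, but miR-100-3p, let-7a-2-3p and *Spalax* miR-351-5p rest on few reads, and with 2 animals a condition most calls near the threshold changed when a library was left out.

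The number of the 5 microRNAs called was 3 in granuloma, of 216 calls over all 447 microRNAs. It was 1 without the filter (of 210 over 670), in edgeR (of 212 over 447) or with the animal as a replicate block (of 210 over 447). Both total scalings gave 4 (of 295 and 265 over 447). The granuloma calls did not hold when any single library was left out. The number was 1 in *Spalax* fibrosarcoma (of 167 over 447), but 4 scaled to total reads (of 235) and 2 scaled to the total without muscle microRNAs (of 199). It was 0 in edgeR (of 163), with the replicate block (of 151) or in a fit of only those libraries (of 145). It also depended on the single library left out. In mouse it was 2 (of 316 over all 547), but 4 scaled to total reads (of 407). With the replicate block (on 4 libraries) it was 0 (of 227), and without single libraries 0 to 3 (of 213 to 320). Between the injected sides of *Spalax* it was 1 (of 84 over 447), but 0 in edgeR (of 72) or in a fit of only those libraries (of 4). There too it depended on the single library left out. The replicate block changed no call other than those given with the results. Over all microRNAs, the difference between the *Spalax* conditions had 17 calls, but 0 with a pseudocount of 0.1 or without the filter, 5 with the block, 43 scaled to total reads and 61 in DESeq2. Between the injected sides there were 84, and 4 in the fit of only those libraries. The difference of granuloma from mouse had 89, but 59 with a pseudocount of 0.1, 159 scaled to total reads, 50 in DESeq2 and 0 in edgeR. That of *Spalax* fibrosarcoma from mouse had 158 calls, and 67 in edgeR.

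Scaling to total reads, and to the total without muscle microRNAs, turned the sign of several values, and the median of all microRNAs moved upward with it. In granuloma, miR-99a-5p became 0.85 and 0.20, and miR-10b-5p 0.73 and 0.076. In *Spalax* fibrosarcoma, miR-125a-5p became 1.05 and 0.41, miR-125b-5p 1.31 and 0.67, and scaled to total reads miR-99a-5p became 0.43 and let-7a-5p 0.52. In mouse the values became 1.00 and 0.54 for miR-99a-5p, 1.39 and 0.94 for miR-100-5p, 1.88 and 1.42 for miR-125a-5p, 0.50 and 0.064 for miR-99a-3p, 1.30 and 1.05 for miR-100-3p, 1.86 and 1.42 for miR-125b-2-3p, 1.43 and 0.97 for let-7c-5p and 0.73 and 0.28 for let-7a-5p, and scaled to total reads 0.18 for miR-10b-5p. Without single libraries, the sign also turned for miR-125a-5p (-0.20 to 0.24) and miR-125b-2-3p (-0.56 to 1.07) in granuloma and for miR-99a-5p (-2.61 to 0.10) and miR-125b-2-3p (-0.91 to 1.09) in *Spalax* fibrosarcoma. miR-99b-5p stayed higher at the injected side in all 3 conditions under every alternative run.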
